A study of Mus musculus with 12 samples.

Results

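The genes described here build cholesterol and fatty acids, sense sterol level, or move and degrade cholesterol in the brain. They were a list of 31 gene symbols, taken by name from the deposited count table, which lists 53465 genes. All 31 had enough reads to be among the 17796 genes tested. The list holds 8 genes of the mevalonate steps, 11 of the steps that lead to squalene and on to cholesterol, 5 regulators, 3 genes of cholesterol transport and turnover and 4 of fatty acid and glycerolipid synthesis. Total RNA of mouse striatum was sequenced in 12 libraries, 3 for each of 4 genotypes on a background labelled C57/BL6. Q175HD/SUMO-KO mice carried an expanded-repeat Htt knock-in together with the knockout labelled SUMO-KO. Q175HD mice carried the neo-deleted Q175 knock-in, a model of Huntington's disease in which the mouse Htt gene holds an expanded CAG repeat, without that knockout. SUMO-KO mice carried the knockout with no knock-in, and WT mice had neither change. The labels give no age, number of knock-in alleles or means by which the knockout was made. They do not say that replicates are separate animals either. Libraries with and without Xist reads, given below, show more than 1 animal in each group but Q175HD, and part of the spread behind each p-value may be technical.

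Brain cholesterol is made locally, because circulating lipoproteins do not cross the blood-brain barrier. Oligodendrocytes use most of it for myelin, and astrocytes supply neurons. Synthesis is set by SREBP-2, the product of Srebf2, a transcription factor held in the endoplasmic reticulum by SCAP and the INSIG proteins. When membrane sterol is low, SCAP carries SREBP to the Golgi, where proteases release its active part, which switches on the genes of the pathway, Insig1 among them. Surplus cholesterol leaves neurons mainly after hydroxylation by CYP46A1, or is passed to apolipoproteins by the transporter ABCA1. Abca1 and Srebf1 are known targets of the oxysterol receptors LXR. Lower levels of sterol synthesis enzymes have been described in Huntington's disease models.

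Libraries held 9379594 to 17226419 reads assigned to genes. Markers of striatal projection neurons were present in every library, and their summed level was 2859 to 4667 CPM (read counts divided by TMM-scaled library size) in Q175HD/SUMO-KO, 4610 to 4735 CPM in Q175HD, 8024 to 9627 CPM in SUMO-KO and 7936 to 9338 CPM in WT. WT 2, SUMO-KO 2 and Q175HD/SUMO-KO 2 had 18092 to 19854 reads of Xist, the RNA of the inactive X chromosome, and no Q175HD library did. Cortical excitatory neuron markers summed to 73.6 to 217 CPM in Q175HD/SUMO-KO, 60.7 to 141 CPM in Q175HD, 69.6 to 125 CPM in SUMO-KO and 184 to 631 CPM in WT. Choroid plexus markers ran between 60.0 and 5023 CPM. SUMO-KO 3 stood apart in the number of calls over all genes that were gained when it was left out. Q175HD/SUMO-KO 2 stood apart in the listed genes. Several of the results that turn on these 2 libraries are also given without them.

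Levels between genes were compared on the deposited TPM values, which account for transcript length. In WT striatum the highest level was that of Scd2, a stearoyl-CoA desaturase of brain and myelin, at 942 ± 52.5 TPM (SD, n = 3, as for the other levels here). Next came Cyp46a1 at 177 ± 11.7 TPM, Srebf2 at 155 ± 13.2 TPM, the desaturase Scd1 at 139 ± 15.2 TPM, Hmgcs1, the synthase that makes the precursor of mevalonate, at 122 ± 13.3 TPM, and Fasn, fatty acid synthase, at 102 ± 7.60 TPM. From Cyp46a1 down to Fasn, each gene overlapped the next in this order within their SDs. The other 25 genes were below 100 TPM, with Insig1 at 69.7 ± 4.79 TPM, Abca1 at 32.1 ± 3.26 TPM and Dhcr7, the last reductase of the route to cholesterol, at 14.3 ± 1.00 TPM. The lowest were Idi1, the isopentenyl diphosphate isomerase, at 7.06 ± 2.58 TPM and Fdps, farnesyl diphosphate synthase, at 1.20 ± 0.132 TPM.

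Some of these counts can be shared with other genes. In GENCODE M21 on GRCm38, 86.4% of the stretches of 50 bases in the longest coding transcript of Fdps also occur in transcripts of other genes. The share was 45.9% for Acat2, acetoacetyl-CoA thiolase, nearly all of it in Acat3, and 30.5% for Idi1. Values of Fdps, Acat2 and Idi1 are uncertain for that reason, and Fdps rested on 13 to 24 reads a library. Exons of Hmgcs1, Idi1, Ggps1, Fdft1, Lss, Cyp51, Srebf1 and Scap overlap exons of a gene on the opposite strand. The kit was directional per the labels, but the strand used in counting is not stated in the sources at hand, so reads of such pairs may be mixed. Hmgcs1 shared 13.6% of its stretches, with Gm48342 on the opposite strand, and Fdft1 30.7%, most of them with Ctsb on the opposite strand. The share was 2.49% for Insig1 and 0% for Cyp46a1, Srebf2, Abca1 and Dhcr7.

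**Figure D1:**
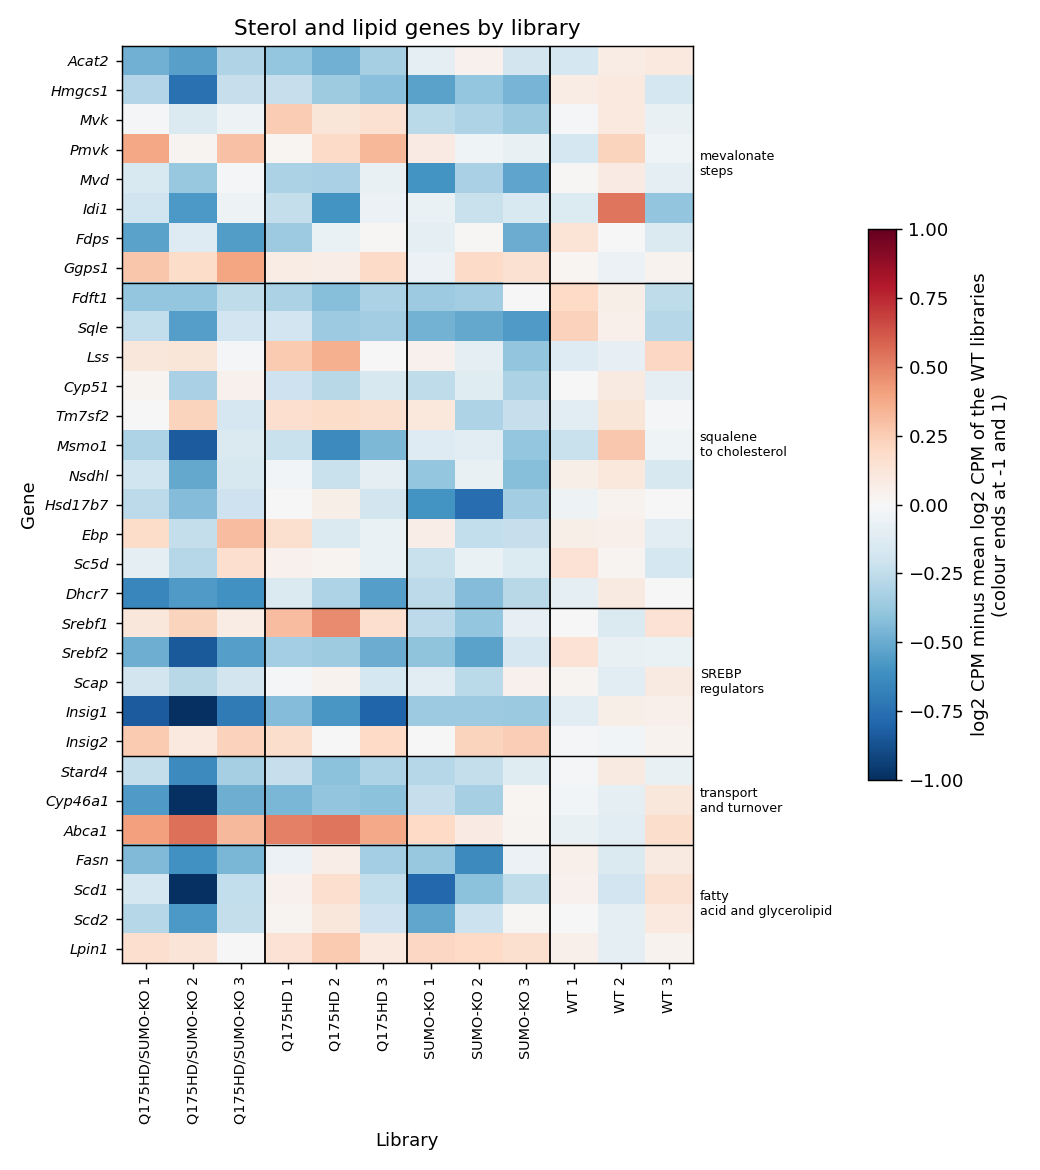
Each row is 1 of the 31 genes, ordered by role, and each column is a library. Colour is log2 CPM minus the mean log2 CPM of the gene in the 3 WT libraries (colour ends at -1 and 1). Insig1, Srebf2, Cyp46a1 and Dhcr7, among others, are blue in every knock-in library, Abca1 is red in them, and Q175HD/SUMO-KO 2 is the bluest column. Insig1, Srebf2 and Dhcr7 are negative in every SUMO-KO library too, and Abca1 is positive there.

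In Q175HD against WT, the knock-in changed 2 of the 31 genes. Insig1, the sterol-sensing anchor that holds SCAP in the endoplasmic reticulum, fell, and Abca1, the cholesterol efflux transporter, rose. In all, 1 of 31 fell, where 2.82% of all genes tested fell, and 1 of 31 rose, where 1.11% of all genes tested rose (edgeR quasi-likelihood test, Benjamini-Hochberg adjusted p under 0.05 over all genes tested). Either count is within 1 gene of what those shares give for a list of this length. The median log2 fold change of the list was -0.10, against 0.00 over all genes tested, and 22 of the 31 values were negative. Without Q175HD 3 the median of the list was also 0.00.

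Insig1 was at 50.1, 45.2 and 38.8 CPM in the Q175HD libraries and at 62.9, 70.6 and 70.2 CPM in the WT libraries. Every Q175HD library was below every WT library. The log2 fold change was -0.60 (SE 0.11, edgeR adjusted p = 0.011). The call was lost without WT 2 or without Q175HD 3 (edgeR adjusted p up to 0.065). Abca1 was at 149, 151 and 136 CPM in Q175HD and at 99.4, 97.5 and 118 CPM in WT, again with no overlap. It rose by 0.47 on the log2 scale (SE 0.10, edgeR adjusted p = 0.0176), a call lost without WT 1, WT 2, Q175HD 1 or Q175HD 2 (edgeR adjusted p up to 0.0869).

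Hmgcs1, Srebf2 and Cyp46a1 did not pass the threshold. Hmgcs1 was at 151, 138 and 132 CPM in Q175HD and at 186, 189 and 156 CPM in WT, a difference of -0.34 in log2 (SE 0.12, edgeR adjusted p = 0.163). Srebf2 was at 192, 190 and 173 CPM in Q175HD and at 269, 231 and 232 CPM in WT, a difference of -0.40 in log2 (SE 0.12, edgeR adjusted p = 0.0744). Cyp46a1 was at 134, 140 and 138 CPM in Q175HD and at 180, 172 and 199 CPM in WT, a difference of -0.42 in log2 (SE 0.14, edgeR adjusted p = 0.114). In each of the 3 genes all Q175HD libraries lay below all WT libraries, and a fit to these 6 libraries alone called all of them (edgeR adjusted p = 0.0418 for Hmgcs1, 0.0146 for Srebf2 and 0.00622 for Cyp46a1). Groups of the list that did not overlap numbered 10 of 31 with Q175HD below, where 14.3% of all genes tested did so, and 6 of 31 with Q175HD above, where 13.6% did so. By role, the median log2 fold change was -0.32 over the 3 transport and turnover genes, -0.05 over the 5 regulators, -0.19 over the mevalonate genes, -0.11 over those from squalene to cholesterol and -0.01 over the fatty acid and glycerolipid genes, and none of the 23 synthesis genes passed the threshold. Msmo1, the sterol methyl oxidase, had the lowest value of those 23, -0.44 (SE 0.17), and Lss, lanosterol synthase, the highest, 0.21 (SE 0.13).

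In Q175HD/SUMO-KO against SUMO-KO, the knock-in again lowered Insig1, together with Cyp46a1, the neuronal cholesterol hydroxylase, and it raised Srebf1, the gene of the SREBP isoform that drives fatty acid synthesis. Thus 2 of 31 fell, where 4.61% of all genes tested fell, and 1 of 31 rose, where 3.19% rose. The median over the list was 0.03, with 17 values positive and 14 negative.

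Insig1 was at 38.0, 31.4 and 41.4 CPM in Q175HD/SUMO-KO and at 52.6, 52.7 and 52.4 CPM in SUMO-KO. All Q175HD/SUMO-KO values were below all SUMO-KO values. The log2 fold change was -0.51 (SE 0.11, edgeR adjusted p = 0.016), and the call was lost without Q175HD/SUMO-KO 1 (edgeR adjusted p = 0.0531). Cyp46a1 was at 124, 86.0 and 130 CPM in Q175HD/SUMO-KO and at 156, 145 and 186 CPM in SUMO-KO. The groups did not overlap, and Q175HD/SUMO-KO 2 was lower than the other two. The log2 fold change was -0.52 (SE 0.14, edgeR adjusted p = 0.0361), and it kept its call in only 4 of 12 fits that left out a library. The fit without Q175HD/SUMO-KO 2 was among those that lost the call of Cyp46a1. Srebf1 was at 90.9, 97.8 and 88.3 CPM in Q175HD/SUMO-KO and at 69.8, 64.1 and 79.1 CPM in SUMO-KO, with no overlap. It rose by 0.38 (SE 0.11, edgeR adjusted p = 0.0476), kept its call in 2 of 12 fits that left out a library, and lost it with the replicate number as a block. A fit to these 6 libraries alone called none of the 3 genes (edgeR adjusted p = 0.0666 for Insig1, 0.156 for Cyp46a1 and 0.116 for Srebf1), nor did the fit without the 3 libraries with high Xist (edgeR adjusted p = 0.122, 0.0682 and 0.24 for the same genes).

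Abca1 had 139, 153 and 131 CPM in Q175HD/SUMO-KO and 120, 111 and 107 CPM in SUMO-KO, a difference of 0.33 in log2 (SE 0.10, edgeR adjusted p = 0.0544). The values did not overlap. Hmgcs1 had 144, 105 and 150 CPM in Q175HD/SUMO-KO and 121, 134 and 128 CPM in SUMO-KO, a difference of 0.06 in log2 (SE 0.12, edgeR adjusted p = 0.807), and its groups overlapped. Srebf2 had 173, 136 and 166 CPM in Q175HD/SUMO-KO and 184, 168 and 217 CPM in SUMO-KO, a difference of -0.26 in log2 (SE 0.12, edgeR adjusted p = 0.186). The 11 genes from squalene to cholesterol had a median of 0.16 here, with 8 values positive, and the 4 fatty acid and glycerolipid genes one of -0.11, and none of these 15 passed the threshold.

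**Figure D2:**
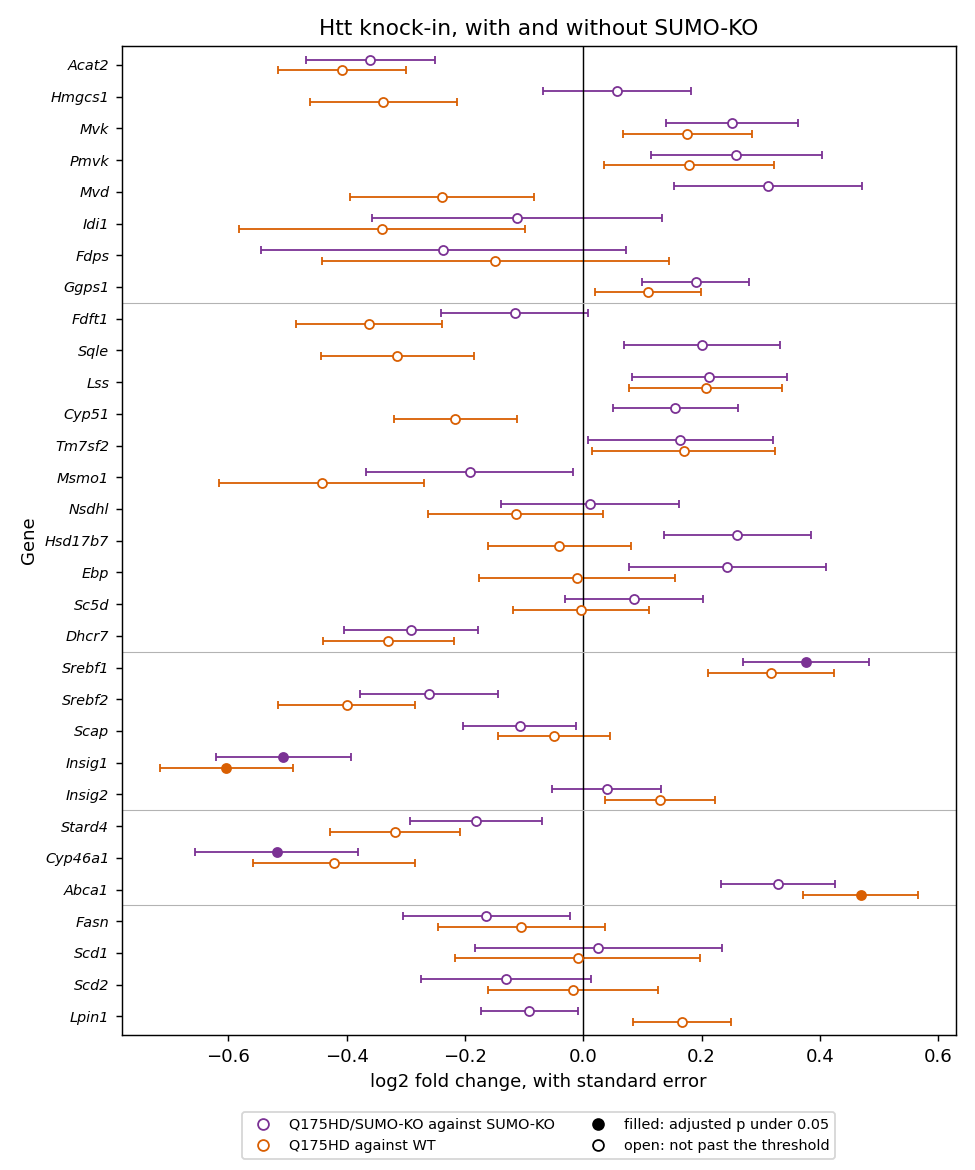
Log2 fold change with its standard error for the 31 genes, for Q175HD/SUMO-KO against SUMO-KO (purple) and Q175HD against WT (orange), from edgeR. Filled points passed an adjusted p under 0.05. Insig1 is filled in both comparisons, Cyp46a1 and Srebf1 in the first and Abca1 in the second.

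The 2 knock-in comparisons share no library. Of the 31 genes, 13 had a negative value in both, 8 a positive value in both and 10 opposite signs, so that 67.7% had the same sign, against 72.9% of all genes tested. Averaged over SUMO-KO status, which uses all 12 libraries, the knock-in lowered 6 of 31 genes, where 8.83% of all genes tested fell, and raised 2 of 31, where 8.04% rose. The list's median was -0.05. The genes that fell were Insig1 at -0.55 (SE 0.08, edgeR adjusted p = 0.000504), Cyp46a1 at -0.47 (SE 0.10, edgeR adjusted p = 0.0055), Acat2 at -0.38 (SE 0.08, edgeR adjusted p = 0.00445), Srebf2 at -0.33 (SE 0.08, edgeR adjusted p = 0.0151), Dhcr7 at -0.31 (SE 0.08, edgeR adjusted p = 0.0173) and Stard4, a carrier that moves sterol between membranes, at -0.25 (SE 0.08, edgeR adjusted p = 0.0436). The risers were Abca1 at 0.40 (SE 0.07, edgeR adjusted p = 0.00166) and Srebf1 at 0.35 (SE 0.08, edgeR adjusted p = 0.00735). Hmgcs1 was at -0.14 (SE 0.09, edgeR adjusted p = 0.294).

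Acat2, which joins acetyl-CoA units at the head of the pathway, was at 20.5, 19.6 and 23.1 CPM in Q175HD/SUMO-KO against 26.9, 29.4 and 25.1 CPM in SUMO-KO. It was at 21.8, 20.4 and 22.7 CPM in Q175HD against 25.3, 30.2 and 30.7 CPM in WT. Knock-in libraries were below their counterparts in both settings, and the reads may include Acat3. Insig1, Cyp46a1, Acat2, Srebf2, Abca1 and Srebf1 kept these calls in all 12 fits that left out a library. Dhcr7 lost its call without WT 2 (edgeR adjusted p = 0.0505), and Stard4 lost it in 11 of the 12 (edgeR adjusted p up to 0.11). Only Insig1, Srebf2, Cyp46a1 and Abca1 were still called without the 3 libraries with high Xist. Leaving those 3 libraries out gives 2 libraries a group except Q175HD.

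**Figure D3:**
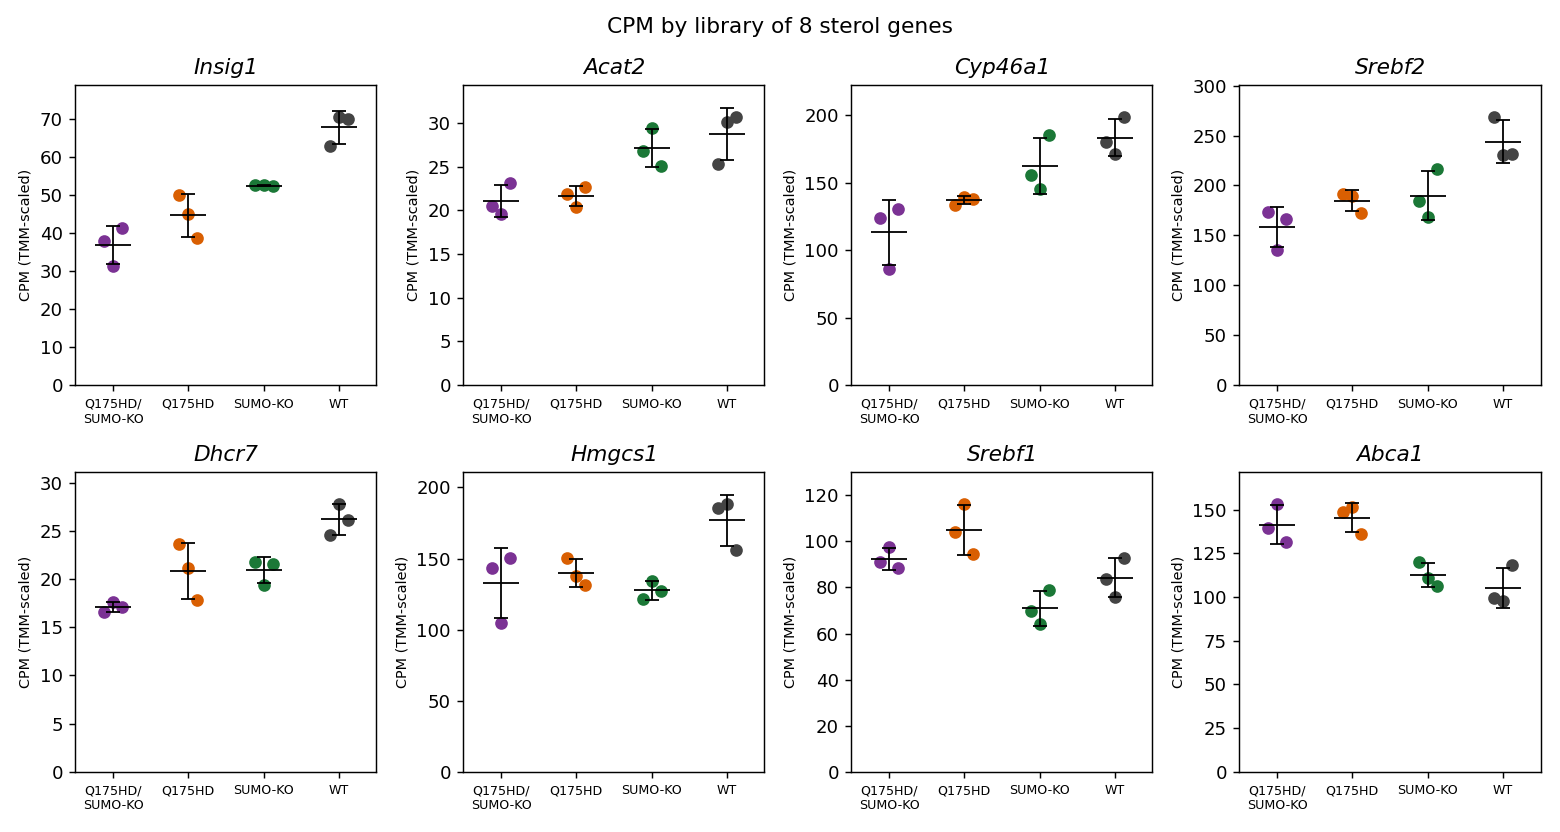
CPM on TMM-scaled library sizes of 8 genes, 1 panel each. Coloured points are libraries, the wide bar is the group mean and the capped bar its SD (n = 3). The knock-in groups are below SUMO-KO and WT for Insig1, Acat2 and Cyp46a1 and above both for Abca1, and Srebf2, Dhcr7 and Hmgcs1 are highest in WT.

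The promoters of 5 genes that these results turn on are shown, since members that move together may hold the same known elements: Insig1, Srebf2, Cyp46a1 and Abca1, which were called, and Hmgcs1, the classic SREBP target of the list. Each is the 250 bases before the start site in RefSeq's GRCm38.p6 annotation, written 5′ to 3′ on the gene's strand. Capitals mark the sterol regulatory element TCACNCCAC and the CCAAT box of the factor NF-Y, on either strand (ATTGG on the reverse).
Insig1, chr5:28071162-28071411, plus strand: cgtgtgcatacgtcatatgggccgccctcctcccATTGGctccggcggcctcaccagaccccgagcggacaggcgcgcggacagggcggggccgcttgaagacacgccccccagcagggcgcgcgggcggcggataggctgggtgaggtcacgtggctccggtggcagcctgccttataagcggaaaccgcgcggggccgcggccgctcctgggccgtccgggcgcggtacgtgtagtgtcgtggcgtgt
Srebf2, chr15:82147019-82147268, plus strand: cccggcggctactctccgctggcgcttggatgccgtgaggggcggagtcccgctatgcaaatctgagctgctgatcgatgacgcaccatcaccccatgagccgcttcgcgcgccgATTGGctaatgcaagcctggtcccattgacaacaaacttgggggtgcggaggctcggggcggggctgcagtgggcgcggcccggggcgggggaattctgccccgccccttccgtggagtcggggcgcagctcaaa
Cyp46a1, chr12:108334066-108334315, plus strand: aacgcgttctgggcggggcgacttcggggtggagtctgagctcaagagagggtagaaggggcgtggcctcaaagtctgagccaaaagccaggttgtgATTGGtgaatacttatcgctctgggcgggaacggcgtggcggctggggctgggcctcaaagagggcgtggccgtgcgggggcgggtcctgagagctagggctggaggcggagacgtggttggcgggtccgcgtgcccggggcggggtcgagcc
Hmgcs1, chr13:119690101-119690350, plus strand: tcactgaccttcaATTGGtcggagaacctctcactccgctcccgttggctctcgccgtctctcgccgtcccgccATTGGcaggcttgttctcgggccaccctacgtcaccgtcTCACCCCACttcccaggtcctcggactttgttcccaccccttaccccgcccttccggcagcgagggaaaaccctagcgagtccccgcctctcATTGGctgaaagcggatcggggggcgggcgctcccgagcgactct
Abca1, chr4:53159896-53160145, minus strand: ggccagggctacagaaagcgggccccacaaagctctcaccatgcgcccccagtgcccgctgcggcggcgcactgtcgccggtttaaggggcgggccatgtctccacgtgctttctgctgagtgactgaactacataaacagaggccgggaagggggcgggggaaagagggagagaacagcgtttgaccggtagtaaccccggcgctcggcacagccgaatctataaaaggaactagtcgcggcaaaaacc
The Hmgcs1 sequence holds the sterol regulatory element, whose first base is at position -137 from the start site, between CCAAT boxes at -176 and -45 and with a further one at -237. Insig1 has 1 CCAAT box, at -216, Srebf2 1 at -135, Cyp46a1 1 at -153, and the Abca1 sequence has none. Binding elements of LXR were not searched for in any sequence.

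RefSeq windows of 300 bases, which run on for 50 bases past the start, were found for 25 of the 31 genes, with 33 windows in all since some genes have several starts. Fdps, Fdft1, Sqle, Stard4, Scd1 and Scd2 were not matched. CCAAT was found in windows of 21 of the 25 genes, or in 22 of the 33 windows, where 37.4% of all 32851 windows hold it. The GC box GGGCGG, bound by Sp1, was in 25 of the 33 windows, where 35.7% of all windows hold it. TCACNCCAC was in 1 of the 33, that of Hmgcs1, where 1.24% of all windows hold it, and the E-box form TCACNTGA, which begins with the same 4 letters, was in 1 of the 33, at a start of Insig2, where 4.18% do. A match is a run of letters, with both strands searched, and its absence says only that those letters are not in the window.

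Genes of the same pathways outside the list were counted from 4 further lists. Of 22 genes of sterol synthesis and SREBP control, 3 rose and 1 fell in the averaged knock-in effect. Nfya and Nfyc, subunits of the CCAAT-binding factor NF-Y, rose by 0.73 (SE 0.08, edgeR adjusted p = 6.19e-05) and 0.43 (SE 0.06, edgeR adjusted p = 0.000287), and Fnta, a farnesyltransferase subunit, by 0.33 (SE 0.08). Mbtps1, the protease that makes the first cut in SREBP, fell by 0.38 (SE 0.07, edgeR adjusted p = 0.00214). Nfya and Nfyc were also called in each knock-in comparison. Nfya was 0.67 in Q175HD against WT and 0.80 in Q175HD/SUMO-KO against SUMO-KO, and Nfyc 0.56 and 0.31 in the same comparisons, as log2 fold changes. Mbtps1 passed in Q175HD/SUMO-KO against SUMO-KO, at -0.51 (SE 0.09).

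Of 25 tested genes of cholesterol transport and oxysterol handling (27 listed), 2 rose and 2 fell in the averaged effect. The transporter Abca7 rose by 0.81 (SE 0.14) and the oxysterol hydroxylase Cyp7b1 by 0.34 (SE 0.09), while Lcat, which esterifies cholesterol on lipoproteins, was at -0.80 (SE 0.18) and the lipoprotein receptor Scarb1 at -0.35 (SE 0.10). Abca7 at 1.02 and Scarb1 at -0.54 also passed in Q175HD/SUMO-KO against SUMO-KO. Among 29 other fatty acid and glycerolipid genes, 5 fell and 1 rose. Acss2, which makes acetyl-CoA from acetate, fell in the averaged effect at -0.45 (SE 0.07, edgeR adjusted p = 0.000911), in Q175HD against WT at -0.39 and in Q175HD/SUMO-KO against SUMO-KO at -0.52. Dgat2, a triglyceride synthase, was at -0.34, the acyl-CoA synthetase Acsl3 at -0.30 and the acyltransferase Agpat1 at -0.29, and the malic enzyme Me1 rose by 0.42. Dgat2 at -0.44 and Me1 at 0.67 passed in Q175HD/SUMO-KO against SUMO-KO too. Of 10 myelin sphingolipid genes, Ugt8a, which makes galactosylceramide, fell (-0.41, SE 0.13, edgeR adjusted p = 0.0466) and the desaturase Degs1 rose (0.34, SE 0.09, edgeR adjusted p = 0.0191). These shares compare with 8.83% of all genes tested that fell and 8.04% that rose. In Q175HD against WT alone, 2 of the 86 tested genes of the 4 lists rose and 1 fell, where 1.11% of all genes tested rose and 2.82% fell. In Q175HD/SUMO-KO against SUMO-KO 4 of the 86 rose and 4 fell, where 3.19% of all genes tested rose and 4.61% fell.

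The SUMO-KO genotype changed none of the 31 genes past the threshold of the edgeR test, although most of them were lower in SUMO-KO than in WT. The edgeR test called 0 of 31 in SUMO-KO against WT, where 0.0450% of all genes tested were called, and the DESeq2 test called 3, all lower (Hmgcs1, Hsd17b7 and Sqle), where 1.61% of all genes with a DESeq2 adjusted p were called. The list's median log2 fold change was -0.22, against 0.02 over all genes tested, and 27 of the 31 values were negative, including all 11 genes from squalene to cholesterol. At an unadjusted p under 0.05, 12 of 31 were lower, where 6.02% of all genes tested were, and 1 was higher, Lpin1, a phosphatidate phosphatase, where 7.44% were. Groups did not overlap in 11 of 31 with SUMO-KO below, where 6.54% of all genes tested did so, and in 1 with SUMO-KO above, again Lpin1, where 7.59% did so. Both shares of lower genes were above those of all genes tested, but the list was chosen with earlier results of these data known and no single gene passed that edgeR test with all libraries and the filter on low counts. All 12 myelinating oligodendrocyte markers were negative as well, with a median of -0.23, and their summed level was 5675 to 8331 CPM in SUMO-KO, below the 8350 to 8892 CPM in WT. With the mean of those markers as a covariate the median of the list was -0.20, with 26 values negative, and 8 of 31 were lower at an unadjusted p under 0.05. In that fit 4.33% of all genes tested were lower at that p. All 10 cortical excitatory neuron markers were also negative, with a median of -1.86, and 7 were lower at an unadjusted p under 0.05. Their sums were 69.6 to 125 CPM in SUMO-KO and 184 to 631 CPM in WT, with no overlap. Values of the list with the cortical mean as a covariate are not given here for this comparison.

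Hsd17b7, a sterol ketoreductase, was at 12.95, 11.6 and 15.5 CPM in SUMO-KO and at 19.1, 20.3 and 19.8 CPM in WT. Its log2 fold change was -0.56 (SE 0.12, edgeR adjusted p = 0.134), the smallest adjusted p of the list. Sqle, squalene epoxidase, was at 27.5, 26.7 and 25.7 CPM in SUMO-KO and at 45.0, 39.6 and 31.3 CPM in WT, a difference of -0.54 in log2 (SE 0.13, edgeR adjusted p = 0.173). Hmgcs1 was at 121, 134 and 128 CPM in SUMO-KO and at 186, 189 and 156 CPM in WT, a difference of -0.47 in log2 (SE 0.12, edgeR adjusted p = 0.191). In these 3 genes every SUMO-KO library was below every WT library.

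Insig1 was at 52.6, 52.7 and 52.4 CPM in SUMO-KO and at 62.9, 70.6 and 70.2 CPM in WT, a difference of -0.37 in log2 (SE 0.11, edgeR adjusted p = 0.231). Srebf2 was at 184, 168 and 217 CPM in SUMO-KO and at 269, 231 and 232 CPM in WT, a difference of -0.36 in log2 (SE 0.12, edgeR adjusted p = 0.245). Neither pair of groups overlapped. Cyp46a1 at -0.18 (SE 0.14, edgeR adjusted p = 0.566) and Abca1 at 0.10 (SE 0.10, edgeR adjusted p = 0.658) had overlapping groups. Without SUMO-KO 3 the same edgeR test called 3 of the list, Hsd17b7 at -0.69 (SE 0.13, edgeR adjusted p = 0.0189), Fasn at -0.51 (SE 0.13, edgeR adjusted p = 0.0368) and Srebf2 at -0.47 (SE 0.11, edgeR adjusted p = 0.0326), while 7.82% of all genes tested in that fit were called (1422, against 8 with all libraries). Without WT 3 the test called Sqle alone of the 31 genes, at -0.67 (SE 0.12, edgeR adjusted p = 0.0298), where 0.754% of all genes were called. In the 4 further pathway lists the median log2 fold changes of SUMO-KO against WT were 0.04 for sterol synthesis and SREBP control, -0.12 for transport and oxysterols, -0.10 for other fatty acid and glycerolipid genes and -0.11 for myelin sphingolipids.

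In the knock-in, the SUMO-KO genotype again gave 0 calls of 31 by edgeR, where 0.0337% of all genes tested were called, and 0 by DESeq2, where 0.0588% were. At an unadjusted p under 0.05, 5 of 31 were lower in Q175HD/SUMO-KO than in Q175HD, where 2.59% of all genes tested were, and 0 were higher, where 2.69% were. They were Fasn at -0.40 (SE 0.14), Scd2 at -0.34 (SE 0.14), Dhcr7 at -0.29 (SE 0.11), Insig1 at -0.27 (SE 0.11) and Mvk, mevalonate kinase, at -0.25 (SE 0.11), each with an edgeR adjusted p = 0.903. The list's median was -0.08 and its mean -0.114, with 22 negative values. Without Q175HD/SUMO-KO 2 the median was -0.08 and the mean -0.052, with 17 negative values. At an unadjusted p under 0.05, 2 of 31 were then lower (Dhcr7 and Fasn), where 1.58% of all genes tested were, and 2 higher. All 12 myelin markers were negative here too, with a median of -0.37. With their mean as a covariate the mean of the list was -0.055, with 18 negative values. In that fit 1 of 31 was lower at an unadjusted p under 0.05 (Dhcr7), where 1.11% of all genes tested were. Fasn was at 258, 230 and 256 CPM in Q175HD/SUMO-KO and at 337, 367 and 276 CPM in Q175HD, so the groups did not overlap. Hmgcs1 at -0.07, Srebf2 at -0.22, Cyp46a1 at -0.27 and Abca1 at -0.04 did not pass either.

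**Figure D4:**
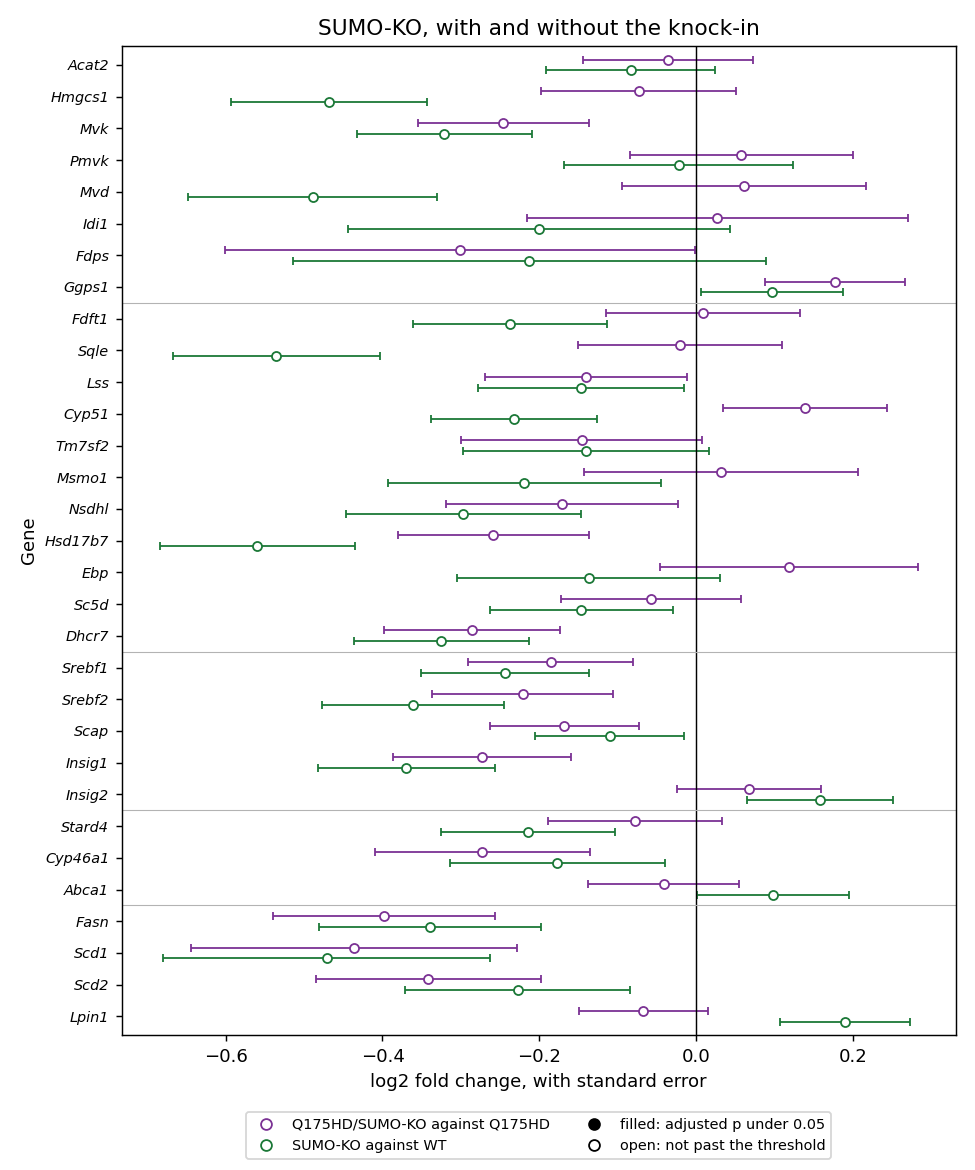
Log2 fold change with its standard error for the 31 genes, for Q175HD/SUMO-KO against Q175HD (purple) and SUMO-KO against WT (green), from edgeR. All points are open, since none passed an adjusted p under 0.05, and 22 of the purple and 27 of the green values are negative.

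These 2 comparisons also share no library. Both values were negative for 20 of the 31 genes, or 64.5%, against 26.5% of all genes tested. Both were positive for 2, or 6.45%, against 38.2% of all genes tested, and 9 had opposite signs. In total 71% of the list had the same sign in both, against 64.7% of all genes tested. Averaged over Htt status, the SUMO-KO genotype gave 0 calls of 31 by edgeR, where 0.0787% of all genes tested were called, and 4 by DESeq2, all lower (Hsd17b7, Fasn, Insig1 and Dhcr7), where 1.48% of all genes with a DESeq2 adjusted p were called. At an unadjusted p under 0.05, 13 of 31 were lower, where 6.61% of all genes tested were, and 1 was higher, Ggps1, geranylgeranyl diphosphate synthase, where 9.08% were. The median was -0.15, with 26 values negative, and -0.11 with 24 negative and 7 of 31 lower at that p when the mean of the myelin markers was a covariate. In that covariate fit 2.53% of all genes tested were lower. Without Q175HD/SUMO-KO 2 the median was -0.16, with 25 values negative. In that fit 11 of 31 were lower at that p, where 5.43% of all genes tested were. Without SUMO-KO 3 edgeR called 6 of the list: Hsd17b7 at -0.47, Fasn at -0.45, Srebf2 at -0.35, Scd2 at -0.35, Insig1 at -0.32 and Dhcr7 at -0.32 in log2. Of all genes tested 6.41% were then called (1165, against 14 with that library).

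Whether the knock-in effect differed with SUMO-KO status was tested as an interaction. None of the 31 genes passed, and 0% of all genes tested did, by edgeR. DESeq2 also called 0 of the 31 and 32 of all genes, or 0.156%. At an unadjusted p under 0.05, 4 of the list were higher, where 2.81% of all genes tested were, and 1 was lower, Lpin1 at -0.26 (SE 0.12), where 1.52% were. Those 4 were enzymes of sterol synthesis, Mvd, the mevalonate diphosphate decarboxylase, at 0.55 (SE 0.22), Sqle at 0.51 (SE 0.19), Hmgcs1 at 0.40 (SE 0.18) and Cyp51, lanosterol demethylase, at 0.37 (SE 0.15), with edgeR adjusted p = 0.997 for each. Sqle was at 32.2, 26.0 and 33.5 CPM in Q175HD/SUMO-KO, 33.4, 29.7 and 30.0 CPM in Q175HD, 27.5, 26.7 and 25.7 CPM in SUMO-KO and 45.0, 39.6 and 31.3 CPM in WT. For all 4 enzymes the highest group mean was that of WT and the lowest that of SUMO-KO. The 10 cortical excitatory neuron markers also all had positive interaction values, with a median of 2.51. At an unadjusted p under 0.05, 8 of these 10 were higher. Interaction values of the list with the cortical mean as a covariate are not given here. Interaction values for Insig1 were 0.10 (SE 0.16), for Cyp46a1 -0.10 (SE 0.19), for Srebf2 0.14 (SE 0.16) and for Abca1 -0.14 (SE 0.14).

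With both changes together against WT, 7 of 31 genes fell, where 5.07% of all genes tested fell, and 1 of 31 rose, where 3.37% rose. The median was -0.30, against 0.05 over all genes tested. This comparison shares its WT libraries with the other 2 comparisons against WT and its Q175HD/SUMO-KO libraries with those above, so it is no separate evidence. Insig1 was at 38.0, 31.4 and 41.4 CPM in Q175HD/SUMO-KO and at 62.9, 70.6 and 70.2 CPM in WT, the largest fall of the list at -0.88 (SE 0.11, edgeR adjusted p = 0.000575). Cyp46a1 at -0.69 (SE 0.14, edgeR adjusted p = 0.0088), Srebf2 at -0.62 (SE 0.12, edgeR adjusted p = 0.0064) and Dhcr7 at -0.62 (SE 0.11, edgeR adjusted p = 0.00549) followed. Dhcr7 was at 16.6, 17.6 and 17.1 CPM in Q175HD/SUMO-KO and at 24.6, 27.8 and 26.2 CPM in WT. Fasn at -0.50 (SE 0.14, edgeR adjusted p = 0.0441), Acat2 at -0.44 (SE 0.11, edgeR adjusted p = 0.024) and Stard4 at -0.40 (SE 0.11, edgeR adjusted p = 0.043) fell as well, and Abca1 rose by 0.43 (SE 0.10, edgeR adjusted p = 0.0169). Hmgcs1 was at -0.41 (SE 0.12, edgeR adjusted p = 0.0574). Insig1, Dhcr7, Srebf2 and Cyp46a1 kept their calls in all 12 fits that left out a library, while Stard4 kept its own in 2, Fasn in 4, and Acat2 and Abca1 in 8.

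Levels of whole cell types moved with these results, and in bulk tissue fewer cells of a type and less RNA per cell cannot be told apart. The 12 myelinating oligodendrocyte markers summed to 4610 to 7573 CPM in Q175HD/SUMO-KO, 7088 to 9747 CPM in Q175HD, 5675 to 8331 CPM in SUMO-KO and 8350 to 8892 CPM in WT. The 10 astrocyte markers summed to 3771 to 4276 CPM in Q175HD/SUMO-KO, 4584 to 5094 CPM in Q175HD, 4647 to 5511 CPM in SUMO-KO and 5228 to 5667 CPM in WT. No marker of either list was at 0 in any library. The astrocyte sums of Q175HD and Q175HD/SUMO-KO lay below all WT sums, but most of each sum was Slc1a2, a glutamate transporter, at 2656, 3285, 3684 and 4042 CPM on average in Q175HD/SUMO-KO, Q175HD, SUMO-KO and WT. By the mean log2 CPM of the 10 markers around WT, Q175HD libraries at -0.048, 0.09 and -0.038 overlapped WT libraries at 0.068, -0.077 and 0.009. Gfap and S100b, of the same list, were higher in every Q175HD library than in every WT library. Of the 10 markers, 3 lay wholly above WT in Q175HD and 4 lay wholly below. Projection neuron markers in both knock-in groups lay below those in SUMO-KO and WT, as did Cyp46a1, which is expressed mainly in neurons. With the mean of the myelin markers as a covariate, 3 of the 8 calls in Q175HD/SUMO-KO against WT were kept (Insig1, Srebf2 and Dhcr7), and 7 of the 8 in the averaged knock-in effect. Cyp46a1, one of the calls lost against WT, was at -0.55 with that covariate and -0.69 without it. With the mean of the cortical markers as a covariate, 5 of the 8 calls in the averaged effect were kept (Srebf2, Dhcr7 and Stard4 were lost), and in Q175HD against WT the call of Insig1 was kept and that of Abca1 lost. Log2 fold changes of the genes that lost these calls are given with the covariate first. They were -0.31 and -0.33 for Srebf2, -0.29 and -0.31 for Dhcr7, -0.29 and -0.25 for Stard4, and 0.48 and 0.47 for Abca1. The cortical covariate also added calls. Acat2 was at -0.65 and -0.41 in Q175HD against WT and at -0.31 and -0.36 in Q175HD/SUMO-KO against SUMO-KO, in the same order. Msmo1 was at -0.46 and -0.32 in the averaged effect. The part of astrocyte and projection neuron markers in the members' values was not tested.

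The library Q175HD/SUMO-KO 2 had the lowest value of its group for 24 of the 31 genes. Its mean over the list was -0.364 on the log2 scale around the WT means, against -0.164 in Q175HD/SUMO-KO 1 and -0.139 in Q175HD/SUMO-KO 3. Scd1 was at 187, 103 and 178 CPM in Q175HD/SUMO-KO 1, 2 and 3, and Msmo1 at 52.7, 36.6 and 59.1 CPM. The same library had the lowest sum of myelin markers (4610 CPM), of astrocyte markers (3771 CPM) and of projection neuron markers (2859 CPM) of all 12. By mean log2 CPM over the astrocyte markers, SUMO-KO 1 was lower, at -0.42 around the WT mean against -0.267 in Q175HD/SUMO-KO 2. Q175HD/SUMO-KO 2 was also the only library of its group with high Xist (18386 reads), and it had 0 reads of the Y-linked gene Ddx3y. No Q175HD library had high Xist, so Q175HD/SUMO-KO against Q175HD was unbalanced in this trait. Without Q175HD/SUMO-KO 2, the median of the list in Q175HD/SUMO-KO against WT was -0.18, and 4 genes were called in place of 8, where 6.37% of all genes were called. The same 4 calls, those of Acat2, Stard4, Abca1 and Fasn, were lost without Q175HD/SUMO-KO 1 and without WT 2. SUMO-KO libraries had list means of -0.228, -0.225 and -0.193, and Q175HD libraries -0.064, -0.106 and -0.142, all below the WT libraries at -0.002, 0.03 and -0.028.

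**Figure D5:**
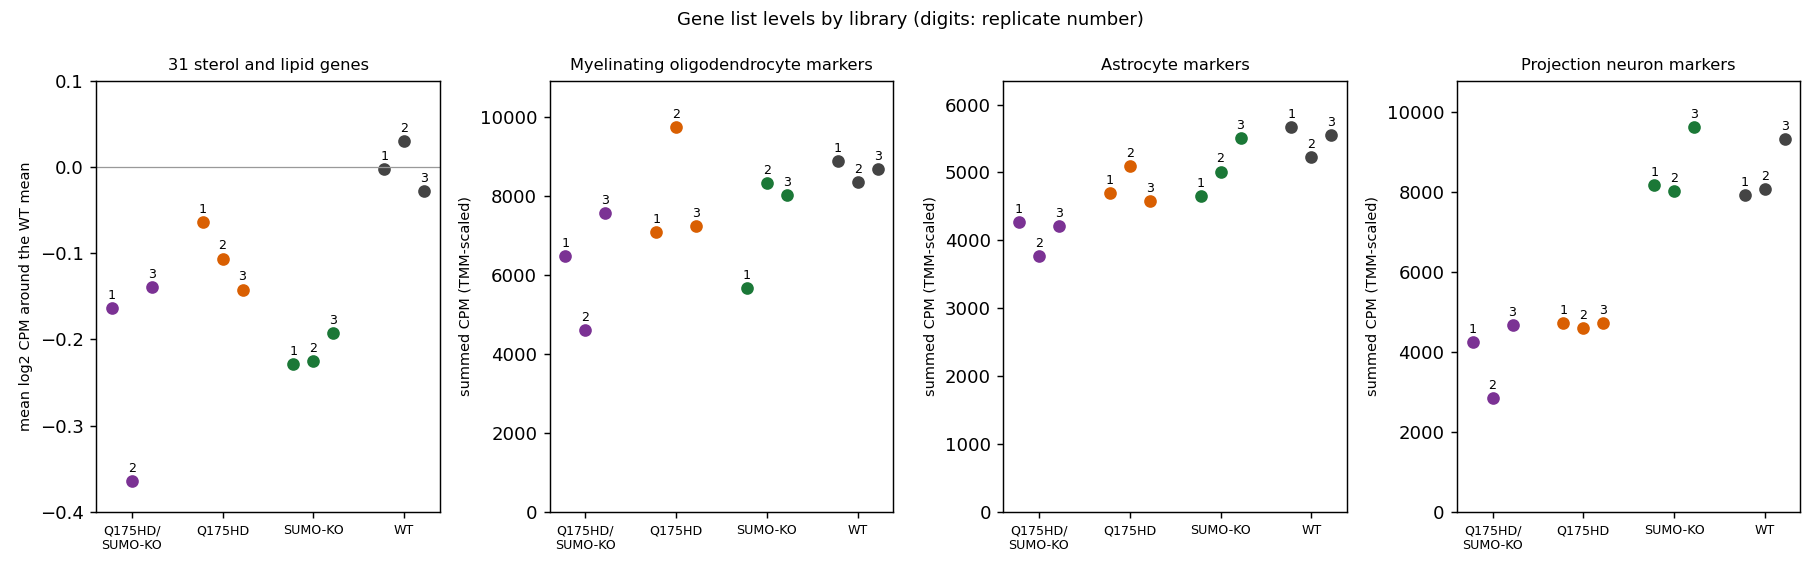
The left panel shows the mean log2 CPM of the 31 genes around the WT means for each library, and the other panels the summed CPM of marker lists of 3 cell types. Points are libraries, with the replicate number beside them. Q175HD/SUMO-KO 2 is lowest in all 4 panels, and all libraries outside WT lie below the WT libraries in the first.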

How the data were processed

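Per the labels, RNA came from the miRNeasy Mini Kit and libraries from a directional NEBNext Ultra II kit with rRNA depletion. Tools named in the submitters' processing notes are STAR 2.5.2a, Bowtie 1.1.2, cutadapt 2.10 and DESeq2, and builds mm10 and GRCm38. How genes were counted is not given in the sources used here. Raw whole-number counts per gene are in the deposited count table, and 0 of its columns belong to another series. The authors' deposited TPM table was used only for levels between genes. The other deposited tables were not used. The level of the gene targeted in SUMO-KO is not reported here.

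The 31 genes and the lists were chosen with earlier results of these data known. The count test was that of edgeR 4.0.16 (R 4.3.3): filterByExpr (minimum count 10, minimum total 15), TMM scaling, 4 group means over all 12 libraries, robust quasi-likelihood F test (common BCV 0.171), Benjamini-Hochberg over 17796 genes, called at adjusted p under 0.05. The SE is the size of the log2 fold change divided by the square root of F. Replicates of a group differed by more than sampling noise (chi-square per degree of freedom 9.26 to 30.4). The script was tested on simulated data. Every called gene of the list was named, as were Hmgcs1, Insig1, Srebf2, Cyp46a1 and Abca1 in each comparison, and called genes of the other pathway lists up to 4 a direction. Genes named at an unadjusted p, as having no overlap, or for 1 library were chosen after their values were seen. Alternatives were median-ratio (RLE) size factors, no filter, DESeq2 1.42.0, only the libraries compared, a replicate block, each library left out, the 3 libraries with high Xist left out, and the cortical or the myelin list mean as a covariate. Annotation came from GENCODE M21 and promoters from RefSeq GRCm38.p6.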

Additional observations from a re-analysis of the deposited data

How the results depend on the processing

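Of 412 alternative values for the 21 called gene results, 312 kept the call, 100 lost it and 0 changed sign. Members called in Q175HD against WT were 2 (6 with only these libraries), in Q175HD/SUMO-KO against SUMO-KO 3 (0 with only these libraries, 0 without the high-Xist libraries), and in the averaged knock-in effect 8 (4 without the high-Xist libraries). For Q175HD/SUMO-KO against WT they were 8, with 3 left without the high-Xist libraries, 5 with the cortical covariate and 3 with the myelin covariate. For SUMO-KO against WT 0 became 2 without the filter and 3 with DESeq2, and for the SUMO-KO effect averaged over Htt status 0 became 3 and 4. Leaving out 1 library at a time gave 0 (without WT 2) to 5 (without Q175HD/SUMO-KO 2) in Q175HD against WT, 0 (without Q175HD/SUMO-KO 1) to 4 (without WT 3) in Q175HD/SUMO-KO against SUMO-KO, 6 to 8 in the averaged effect, 4 (without Q175HD/SUMO-KO 1 or 2 or WT 2) to 10 (without SUMO-KO 3) in Q175HD/SUMO-KO against WT, and, without SUMO-KO 3, 3 for SUMO-KO against WT and 6 for the SUMO-KO effect averaged, in both of which most fits gave 0. It gave 0 for Q175HD/SUMO-KO against Q175HD and for the interaction. The cause was not tested, beyond the fewer libraries in some fits. Calls over all genes are not given here for most fits that left out a library, or for the replicate block. The member counts of those fits therefore cannot be set against them. Where an arm was left with 1 library it was assumed to vary like the others.

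Calls over all genes moved too: 699 in Q175HD against WT was 1297 with only these libraries and 176 with the cortical covariate, 1389 in Q175HD/SUMO-KO against SUMO-KO was 407 with only these libraries, 8 in SUMO-KO against WT was 251 with DESeq2 and 119 without the filter, and 14 for the SUMO-KO effect averaged was 203 and 133. The averaged 3001 was 1712 with the cortical covariate, and 1502 in Q175HD/SUMO-KO against WT was 458 without the high-Xist libraries. The list's median in Q175HD/SUMO-KO against SUMO-KO was 0.03, and -0.07 without Q175HD/SUMO-KO 3; in Q175HD against WT it was -0.10, and 0.00 without Q175HD 3.

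Replicate numbers were not taken as pairs: deviations of same-numbered libraries correlated at -0.228 to 0.574 (11 of 18 over 0.1, median 0.139, against -0.031 for other numbers), and 9 of 12 libraries correlated best with their own number. With the replicate block the members called were 2, 2, 8 and 8 in Q175HD against WT, Q175HD/SUMO-KO against SUMO-KO, the averaged effect and Q175HD/SUMO-KO against WT, and 0 in the others. Depth limits Fdps most, with 13 to 24 reads a library.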
